A study of Drosophila mojavensis with 137 samples.

Results

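Mated adult males of Drosophila mojavensis reared on agria cactus were compared between a stock from Punta Prieta in Baja California and a stock from Las Bocas in Sonora. The comparison rests on 10 of the 137 arrays of the series, chosen by their titles, with 5 arrays of Punta Prieta males and 5 of Las Bocas males. In each population 1 array was of flies that took 14 days from egg to adult, 3 were of flies that took 15 days and 1 was of flies that took 16 days. All 10 arrays are labelled wild-type, normal phenotype, agria diet, male, mated and whole organism, and bottle cultures were kept at moderate larval density in an incubator with a cycling temperature. Each population is 1 stock, PP08 or LB09, so a difference between the populations cannot be told apart from a difference between these stocks. The labels do not say whether replicates were separate cultures or pools of flies, so each p-value reflects no more than the scatter among arrays, part or all of which may be technical.

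D. mojavensis is a fruit fly that breeds in the rotting tissue of columnar cacti, on agria in Baja California and mainly on organ pipe in mainland Sonora. Its populations on either side of the Gulf of California are a textbook case of divergence with host use. In Drosophila, mated males replenish the seminal fluid proteins and sperm that they transfer, so mated and virgin males are different states of the male reproductive tract. A whole fly is a mixture of all its tissues, and more cells of a kind and more RNA per cell cannot be told apart in it.

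The values are the authors' deposited log2 expression values, 1 for each of 14528 transcripts on each array, and a log2 difference of 1 is a 2-fold difference. Transcripts carry IDs without gene names, and 0 IDs matched the 15130 genes of the RefSeq table used, so no gene role, pathway or cell type marker could be read and the labelled tissue was not checked against markers. Only a few IDs are given. The labelled sex was checked with a sex score, which subtracts the average of 1424 strongly male-biased transcripts from that of 333 strongly female-biased ones, both classes (over 4-fold) taken from 76 virgin arrays of the series. The scores lay between -3.21 and -3.01 in the Punta Prieta males and between -3.03 and -2.83 in the Las Bocas males, far from the scores of 1.93 to 3.74 of the female arrays that match their label. Array medians lay between 11.34 and 11.46. Pearson correlations between arrays over all transcripts were 0.951 to 0.992 among Punta Prieta males, 0.961 to 0.993 among Las Bocas males and 0.933 to 0.989 between the populations. The array of Punta Prieta, 15 days, replicate 1, stood apart, with a mean correlation of 0.9559 with the other 9 arrays, against 0.9738 to 0.9826 for the rest.

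Population was not the main axis of variation among the 10 arrays. The first principal component held 53.5% of the variance, and on it Punta Prieta arrays lay between -13.2 and 49.8 and Las Bocas arrays between -28.3 and 22.0. The Las Bocas array of 14 days lay at 22.0, among the Punta Prieta arrays, and the Punta Prieta array of 15 days, replicate 3, lay at -13.2, among the Las Bocas arrays. Most other Punta Prieta arrays were positive and most other Las Bocas arrays negative on this component. The second component, with 14.1%, also overlapped, at -10.8 to 18.2 in Punta Prieta and -23.5 to 4.2 in Las Bocas. On both components together a straight line parts the populations, which was seen after the fact and not tested. Within a population, the spread of a transcript was alike on the whole. The median SD was 0.168 in Punta Prieta and 0.17 in Las Bocas, and 50.1% of transcripts had the larger SD in Punta Prieta.

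The populations differed in 104 transcripts in mated males on agria, 56 higher and 48 lower in Punta Prieta than in Las Bocas (limma, adjusted p below 0.05 after Benjamini-Hochberg over all transcripts). That is 0.716% of the 14528 tested, 0.385% higher and 0.33% lower. Their median absolute difference was 0.75 on the log2 scale, a fold of 1.68, against 0.12 over all transcripts. The differences of the 104 ranged in size from 0.35 to 2.59. Over 0.5 there were 43 higher and 44 lower, over 1 there were 14 higher and 11 lower, and over 2 there were 1 higher and 3 lower. In all 104 the arrays of the populations did not overlap, which held for 556 transcripts in all, 3.83% of those tested (275 higher, 1.89%, and 281 lower, 1.93%). The other 452 transcripts without overlap did not pass. Without adjustment, 2193 transcripts (15.1%) had p below 0.05.

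The size of this list rested on single arrays. Leaving out the Las Bocas array of 14 days raised the count to 164 (72 higher, 92 lower). Leaving out the Las Bocas arrays of 15 days, replicates 1, 2 and 3, gave 21, 37 and 14, and leaving out that of 16 days gave 26. Of the Punta Prieta arrays, leaving out that of 14 days gave 51, those of 15 days, replicates 1, 2 and 3, gave 80, 16 and 58, and that of 16 days gave 54. All 104 kept their sign in each of these 10 fits. Their arrays did not overlap between the populations to begin with, so leaving out 1 array could hardly change a sign. Of the 104, 36 passed in at least 5 of these fits and 10 passed in every one. With arrays weighted by their agreement with the fit 678 transcripts passed (273 higher, 405 lower), among them 103 of the 104 in the same direction. That fit reuses the 10 arrays in which the 104 were chosen. Its weights ran from 0.39 to 3.9, on the Punta Prieta arrays of 15 days, replicates 1 and 2. With the spread taken from all arrays of the series whose sex score matches their label 182 passed.

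Transcripts that passed were found at all levels of the log2 scale. The transcripts were divided by mean level into 4 bins of 3632, and of the dimmest, 6.14 to 9.96, 0.578% passed (9 higher, 12 lower). In the next bins 0.826% (14 and 16) and 1.1% (24 and 16) passed, and in the brightest bin, from 12.69 to 15.65, 0.358% (9 and 4). The median standard error of a difference was 0.155 in the dimmest and 0.085 in the brightest bin, and the median absolute difference 0.204 and 0.069. For all transcripts the 95% interval of the difference had a median reach of 0.25 to either side, and it lay wholly within 0.5 of no difference for 9920 transcripts, or 68.3%.

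FBtr0175546 was higher in Punta Prieta by the largest amount of those that passed. It had values of 12.03 at 14 days, 11.70, 11.78 and 11.95 at 15 days and 11.71 at 16 days in Punta Prieta males, against 9.26, then 9.79, 9.48 and 9.72, and then 9.66 in Las Bocas males at the same days. No Punta Prieta array came near a Las Bocas one, and the array of 14 days was the highest in Punta Prieta and the lowest in Las Bocas. The means were 11.84 ± 0.149 and 9.58 ± 0.214 (SD, n = 5 each), a log2 difference of 2.26 (SE 0.119, limma adjusted p = 6.01e-05), a fold of 4.78.

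FBtr0167831 was the second, with 12.14 at 14 days, 12.47, 12.52 and 12.25 at 15 days and 13.09 at 16 days in Punta Prieta males. Las Bocas males had 9.45 at 14 days, 11.17, 11.30 and 10.49 at 15 days and 10.29 at 16 days. The groups did not overlap, but Las Bocas males were widely spread, with the 14 day array lowest. The difference was 1.95 (SE 0.287, limma adjusted p = 0.021). It did not pass without the Las Bocas array of 15 days, replicate 3 (limma adjusted p = 0.0698). Nor did it pass without the Punta Prieta arrays of 14 days (0.0615), of 15 days, replicate 2 (0.0709), or of 16 days (0.057). In these fits the difference lay between 1.90 and 1.95. In the other fits that left out 1 array it passed, with differences from 1.70 to 2.14.

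FBtr0167365 was lower in Punta Prieta by the largest amount. It had values of 9.03 at 14 days, 8.98, 9.95 and 9.27 at 15 days and 9.0 at 16 days in Punta Prieta males, against 12.03, then 12.00, 11.55 and 11.98, and then 11.64 in Las Bocas males. The highest Punta Prieta array lay well below the lowest Las Bocas array. The means were 9.25 ± 0.409 and 11.84 ± 0.223 (SD, n = 5 each), a difference of -2.59 (SE 0.191, limma adjusted p = 0.000495), a fold of 6.04.

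FBtr0175016 followed, with 10.92 at 14 days, 9.91, 10.42 and 10.93 at 15 days and 10.88 at 16 days in Punta Prieta males. Las Bocas males had 12.44 at 14 days, 12.84, 12.83 and 12.44 at 15 days and 12.84 at 16 days. The groups did not overlap and the difference was -2.07 (SE 0.205, limma adjusted p = 0.0046). With the 6 arrays of 15 days alone, FBtr0175546 passed, and the differences of the other transcripts named were 1.43 for FBtr0167831, -2.44 for FBtr0167365 and -2.28 for FBtr0175016, with adjusted p of 0.0909 to 0.121.

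**Figure D1:**
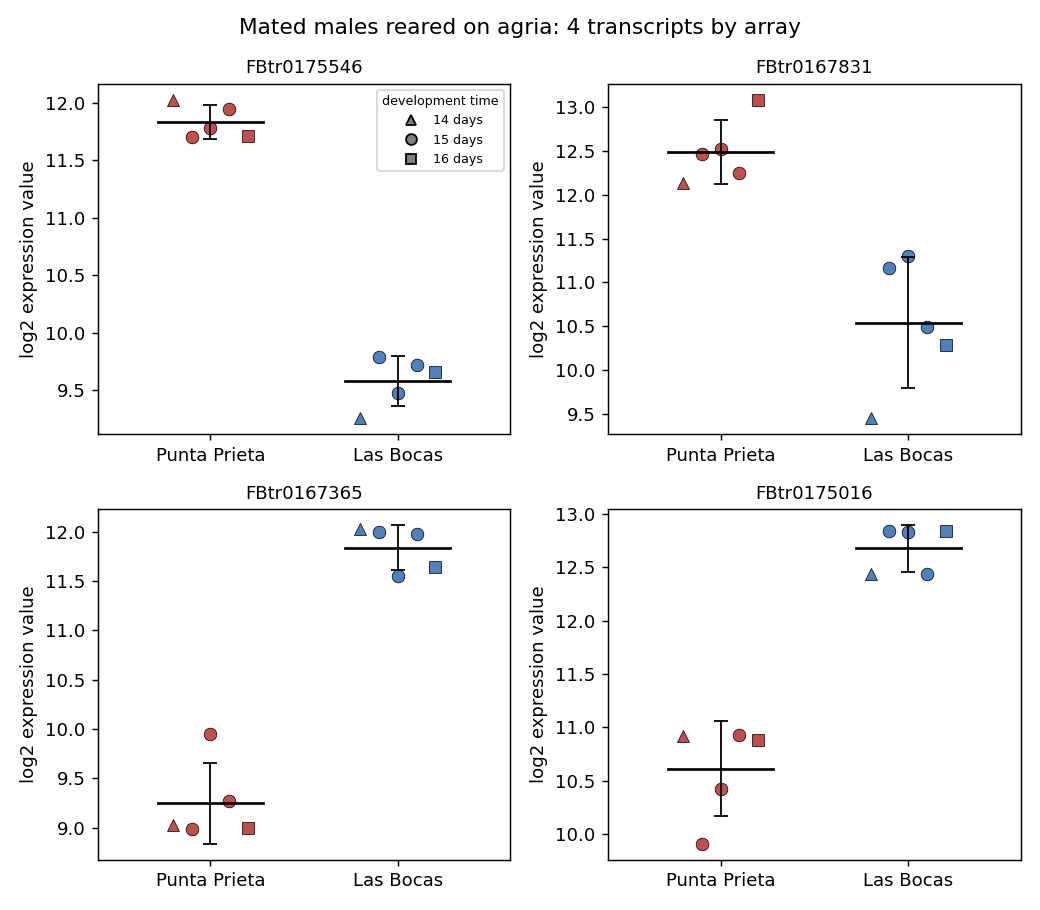
Log2 expression value (y axis) of FBtr0175546, FBtr0167831, FBtr0167365 and FBtr0175016 on each of the 10 arrays, Punta Prieta left and Las Bocas right in each panel, with triangles for 14, circles for 15 and squares for 16 days. Horizontal lines are means and error bars are SDs (n = 5 each); in each panel the populations do not overlap, and FBtr0167831 has the widest spread in Las Bocas, 9.45 to 11.30.

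The same contrast was available in arrays that the comparison above does not use, so the list of 104 could be read there. In virgin males reared on agria (12 Punta Prieta and 11 Las Bocas arrays of 14 to 16 days) all 104 had the same direction, where 62.2% of all 14528 transcripts did. In virgin males reared on organ pipe (15 and 13 arrays) all 104 again had the same direction, where 70.2% of all transcripts did, and this count was also 104 without the 2 organ pipe arrays that stood apart. Of the 104, 95 also passed in agria virgin males, where 16.4% of all transcripts passed (8.48% higher, 7.87% lower, and 30.4% at an unadjusted p below 0.05), and 89 in organ pipe virgin males, where 4.42% passed (1.98% higher, 2.44% lower). Counted together, 83 passed in both virgin sets and 3 in neither. The median absolute difference of the 104 was 0.57 in agria virgin males and 0.59 in organ pipe virgin males, against the 0.75 in the mated males in which they were chosen. Across the 104 transcripts, which are not independent replicates and share stocks and array processing, the differences in mated males correlated with those in agria virgin males at r = 0.959 and with those in organ pipe virgin males at r = 0.974. Over all transcripts r was 0.445 and 0.722.

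**Figure D2:**
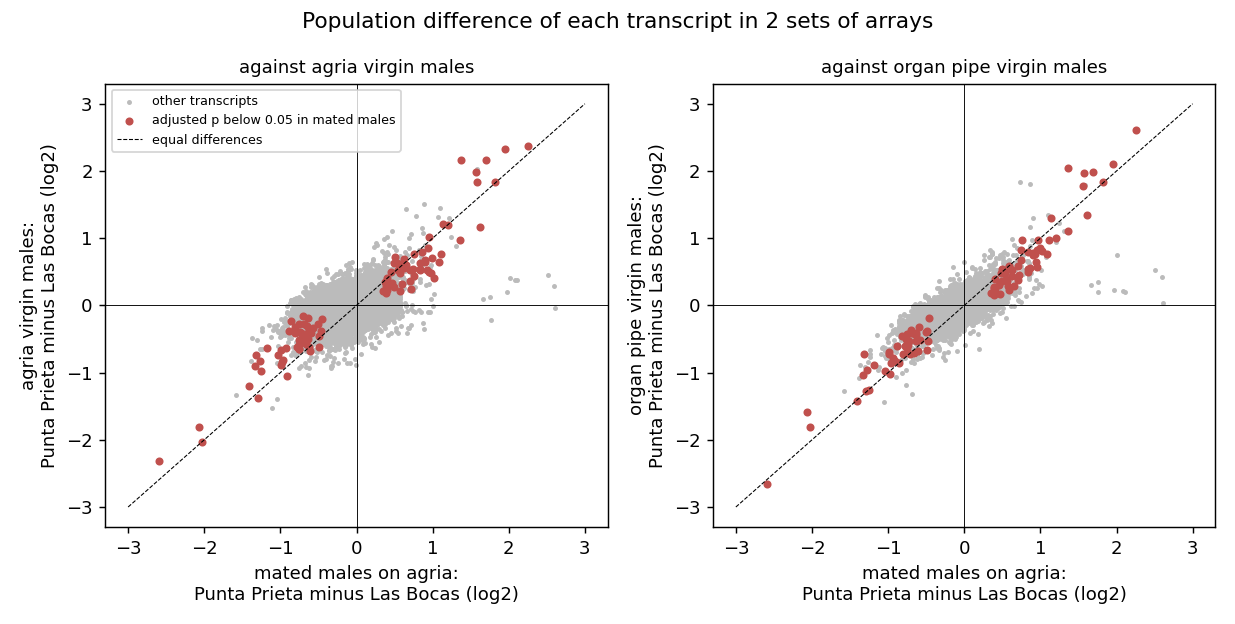
Punta Prieta minus Las Bocas on the log2 scale for each of 14528 transcripts in mated males on agria (x axis) against the same difference in virgin males (y axis), on agria at left and on organ pipe at right. Red points are the 104 transcripts that passed in mated males and grey points the rest; the dashed line marks equal differences, and every red point lies in the quadrants of equal sign.

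The named transcripts had like levels in the virgin males. FBtr0175546 averaged 11.82 ± 0.373 in Punta Prieta (SD, n = 12) and 9.44 ± 0.308 in Las Bocas (SD, n = 11) in agria virgin males, a difference of 2.37, and the difference was 2.61 in organ pipe virgin males. FBtr0167831 differed by 2.32 and 2.11, FBtr0167365 by -2.32 and -2.65, and FBtr0175016 by -1.82 and -1.59, each with limma adjusted p of 4.55e-09 or less. In agria virgin males the lowest Punta Prieta value of FBtr0175546 was 11.16 and the highest Las Bocas value 10.03, and in organ pipe virgin males, too, its populations did not overlap.

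Read the other way, transcripts chosen in virgin males were carried into mated males. There were 473 that passed in both virgin sets, 211 higher and 262 lower in Punta Prieta, with 0 of opposite sign. In mated males on agria 209 of the 211 were higher and 262 of the 262 lower, where 50.2% and 49.8% of all transcripts were. Of these 473, 83 passed in mated males (42 higher, 41 lower), or 17.5% against the 0.716% of all transcripts. The median differences were 0.41 and -0.35 in mated males on agria, 0.46 and -0.41 in agria virgin males and 0.45 and -0.41 in organ pipe virgin males. The list from agria virgin males alone, which is longer, followed less closely: 88.9% of its 1232 higher and 83.7% of its 1144 lower transcripts had the same direction in mated males. Their median differences were 0.17 and -0.14 there, against 0.30 and -0.31 in the virgin males in which they were chosen. Of the list from organ pipe virgin males alone, 99% of 287 higher and 99.2% of 355 lower transcripts had the same direction in mated males on agria. Their medians were 0.37 and -0.33 there, against 0.40 and -0.39 in the organ pipe virgin males.

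Array by array, the 211 transcripts higher in Punta Prieta virgin males stood above their 10-array mean in each Punta Prieta mated male, by 0.268 at 14 days, 0.224, 0.224 and 0.257 at 15 days and 0.323 at 16 days. In Las Bocas mated males they stood at -0.208 at 14 days, -0.25, -0.262 and -0.265 at 15 days and -0.311 at 16 days. The populations are well apart, also on the array of Punta Prieta, 15 days, replicate 1, and on the Las Bocas array of 14 days that lay with the other population on the first component. The 262 lower transcripts lay between -0.285 and -0.095 in Punta Prieta males and between 0.175 and 0.297 in Las Bocas males, with the Punta Prieta array of 16 days nearest to the other population.

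**Figure D3:**
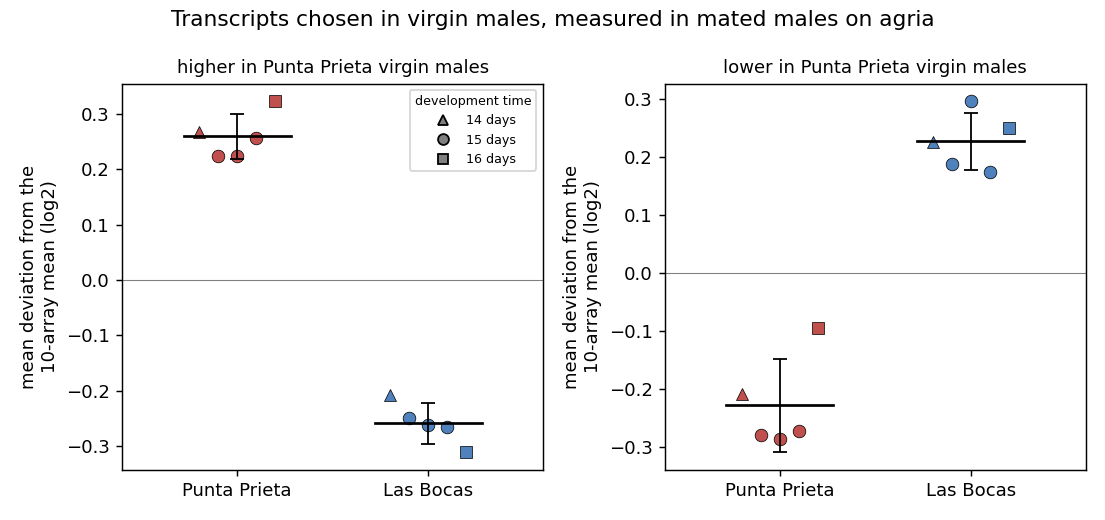
Mean deviation from the 10-array mean (log2, y axis) of 211 transcripts higher (left) and 262 lower (right) in Punta Prieta in both sets of virgin males, on each array of mated males on agria. Lines are means and error bars SDs (n = 5 each); Punta Prieta arrays lie at 0.224 to 0.323 at left and -0.285 to -0.095 at right, with no overlap with Las Bocas.

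Whether the population difference of mated males departs from that of virgin males on the same cactus was tested as an interaction of population and mating on 33 arrays. By limma 0 transcripts passed (smallest adjusted p = 0.511), with 1413, or 9.73%, at an unadjusted p below 0.05. The 95% interval of this interaction, taken before adjustment, had a median reach of 0.30 to either side. Passing after adjustment over all transcripts takes more, so interactions larger than 0.30 could also go undetected. For the named transcripts the intervals ran from -0.57 to 0.35 for FBtr0175546, from -1.07 to 0.30 for FBtr0167831, from -0.82 to 0.28 for FBtr0167365 and from -0.78 to 0.27 for FBtr0175016. For FBtr0175386 and FBtr0172763, described next, they ran from -0.81 to 0.28 and from -1.46 to -0.14. The interval of FBtr0172763 leaves out 0 before adjustment, and its interaction of -0.80 did not pass (limma adjusted p = 0.511).

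Between mated males and mated females on agria the population difference departed for 2 transcripts, 0.0138% of those tested (limma on 21 arrays, population by sex interaction, 1928 at an unadjusted p below 0.05). Both were higher in Punta Prieta males and are moderately male-biased in virgin flies (past the threshold, by over 0.5 and up to 2 on the log2 scale). Their female minus male differences there were -1.98 for FBtr0175386 and -1.99 for FBtr0172763, only just inside the boundary to strong bias. FBtr0175386 had 12.22 at 14 days, 12.41, 11.75 and 12.50 at 15 days and 12.80 at 16 days in Punta Prieta males, against 10.94, then 11.04, 10.69 and 10.73, and then 10.39 in Las Bocas males. Every Punta Prieta male array exceeded every Las Bocas one. In females it was 9.10 ± 0.392 in Punta Prieta (SD, n = 5) and 9.60 ± 0.286 in Las Bocas (SD, n = 6), where the populations overlapped. The difference was 1.58 in males (SE 0.195, adjusted p = 0.0135) and -0.50 in females (SE 0.202, adjusted p = 0.158), and the interaction was 2.07 (SE 0.292, limma adjusted p = 0.00718).

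FBtr0172763 had 14.06 at 14 days, 13.63, 13.77 and 13.85 at 15 days and 13.84 at 16 days in Punta Prieta males, against 12.24, then 12.96, 12.53 and 12.14, and then 12.43 in Las Bocas males. In females it was 10.09 ± 0.271 in Punta Prieta (SD, n = 5) and 10.43 ± 0.281 in Las Bocas (SD, n = 6), where the populations overlapped. The difference was 1.37 in males (SE 0.155, adjusted p = 0.0107) and -0.34 in females (SE 0.175, adjusted p = 0.208), with an interaction of 1.71 (SE 0.24, limma adjusted p = 0.00718). The female levels of FBtr0175386, 9.10 and 9.60, lay in the range of the dimmest bin of the mated males. Differences of dim transcripts can be compressed, and whether this bears on the interaction was not tested. Of the 6 Las Bocas female arrays, 3 had sex scores at the low end of their sex. Without these 3 the interactions were 1.85 (adjusted p = 0.192) for FBtr0175386 and 1.62 (adjusted p = 0.0639) for FBtr0172763, so the sizes stayed close and the calls were lost. With arrays of 15 days alone neither passed, at 2.06 (adjusted p = 0.0633) for FBtr0175386 and 1.30 (adjusted p = 0.0766) for FBtr0172763. In virgin males on agria the population differences of these transcripts were 1.84 and 2.17, and on organ pipe 1.97 and 2.04.

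**Figure D4:**
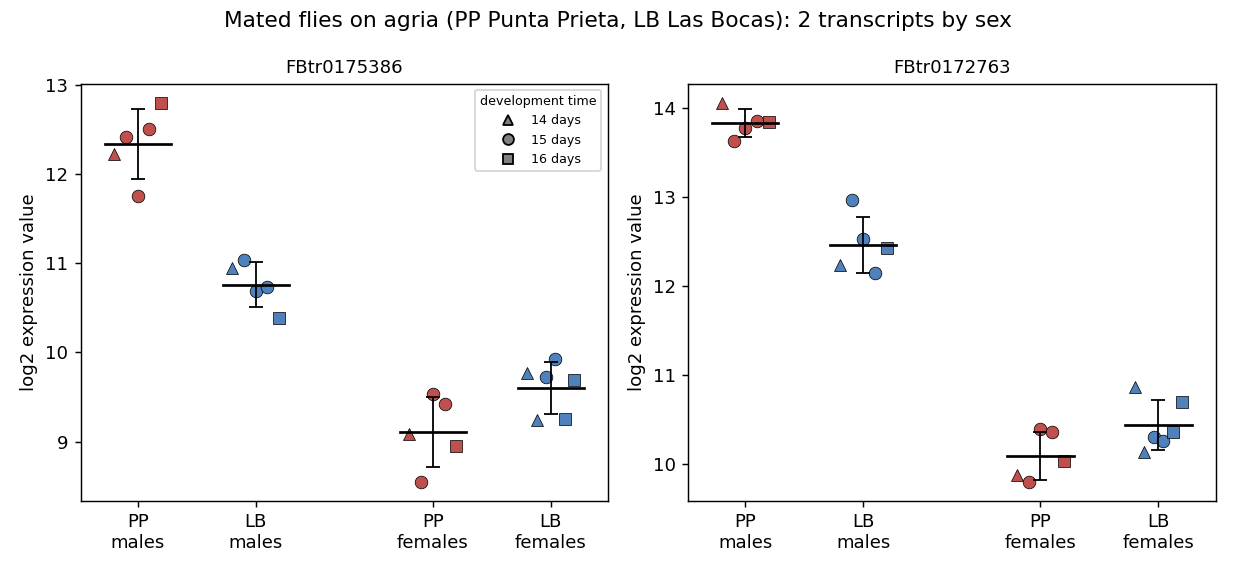
Log2 expression value (y axis) of FBtr0175386 and FBtr0172763 in mated males and mated females on agria, Punta Prieta (PP) left of Las Bocas (LB) in each sex, with symbols for development time as labelled. Lines are means and error bars SDs (n = 5, 5, 5 and 6 from left to right); in males the populations are apart, in females they overlap.

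The 104 transcripts were set beside the mated females as a whole. In females 84 of the 104 had the same direction, where 63.5% of all transcripts did, and 88 did without the 3 Las Bocas female arrays. Of the 56 higher in Punta Prieta males 40 were also higher in females, and of the 48 lower 44 were also lower. In females 12 of the 104 passed, where 0.186% of all transcripts passed (0.11% higher, 0.0757% lower, and 27.9% at an unadjusted p below 0.05), and of the 20 with the opposite direction 0 passed. Without the 3 Las Bocas female arrays of low sex score, 3 of all transcripts passed in females, against 27 with them. FBtr0175546 differed by 2.31 and FBtr0167365 by -2.30 in mated females, near their differences of 2.26 and -2.59 in mated males.

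Since the IDs carry no names, transcripts were grouped by their sex bias in virgin flies. Among 1424 strongly male-biased transcripts (over 4-fold) 8 were higher in Punta Prieta mated males and 0 lower. The 8 are 0.562% of the class, against 0.716% of all transcripts in either direction (0.385% higher, 0.33% lower). At an unadjusted p below 0.05 in limma, 14.8% of the class were higher and 0.772% lower, against 6.79% and 8.3% of all. With the boundary at 2-fold the class was larger and held 16 higher and 3 lower past the threshold. The share of that larger class is not given here, so these counts cannot be set against those at 4-fold. At 4-fold the median difference of the class was 0.089 against 0.001 over all transcripts. Of this class 79.8% had a positive difference, against 50.2% of all. The per-array medians of the class overlapped nevertheless, at -0.072 to 0.106 in Punta Prieta and -0.143 to 0.044 in Las Bocas, with the Punta Prieta array of 16 days low and the Las Bocas array of 15 days, replicate 3, high. The median of the same class was 0.1 in agria virgin males and 0.003 in organ pipe virgin males.

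Among 1328 moderately male-biased transcripts 12 were higher and 10 lower, 1.66% of the class against 0.716% of all transcripts. Among the 6753 with little sex bias, 26 lay higher and 25 lower (0.755%), of 4690 moderately female-biased 10 and 10 (0.426%), and of 333 strongly female-biased 0 and 3 (0.901%). Their medians were 0.043, -0.017, -0.02 and -0.041.

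Transcripts that respond to mating were taken from Punta Prieta males on organ pipe, which share no array with the comparison. With all 11 mated and 15 virgin arrays there, 299 (2.06%) were higher and 192 (1.32%) lower in mated males. The 192 had a median difference of -0.173 between the populations in mated males on agria, with 0 higher and 3 lower past the threshold, 1.56% of the class against 0.716% of all, and 18.2% had a positive difference. The 299 had a median of 0.087, with 1 higher and 0 lower past the threshold, 0.334% of the class, and 78.6% positive. Without the mated male array of that set whose sex score goes against its label, the classes held 494 and 314 transcripts, with medians of 0.098 and -0.213. In virgin males on agria the medians of the smaller classes were -0.058 for the 299 and -0.158 for the 192. The per-array medians of the 314 overlapped between the populations, with -0.276 to 0.225 in Punta Prieta and 0.018 to 0.213 in Las Bocas, and the Punta Prieta array of 16 days was the highest of all 10. Per-array medians of the class higher in mated males overlapped too, with 0.009 to 0.13 in Punta Prieta and -0.15 to 0.071 in Las Bocas.

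Large mean differences did not always pass. Besides the 25 transcripts that passed with a difference over 1, 18 were higher and 24 lower in Punta Prieta by over 1 without passing (adjusted p from 0.0514 to 0.296 and from 0.0538 to 0.346). The 18 had a median difference of 1.71 with a median standard error of 0.59, against 1.47 and 0.18 for the 14 higher transcripts that passed. In 16 of these 18 the SD was larger in Punta Prieta, with medians of 1.38 in Punta Prieta and 0.27 in Las Bocas. Their mean log2 value was 9.56 at 14 days, 11.25, 11.76 and 9.88 at 15 days and 11.65 at 16 days in Punta Prieta males. It was 8.83 at 14 days, 9.35, 9.24 and 9.01 at 15 days and 9.17 at 16 days in Las Bocas males. Thus 3 Punta Prieta arrays were far above the other 2, which lay just above the Las Bocas males.

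The 24 lower transcripts were spread in both populations, with median SDs of 0.74 in Punta Prieta and 0.64 in Las Bocas. Their mean was 10.75 at 14 days, 9.66, 10.96 and 11.27 at 15 days and 10.73 at 16 days in Punta Prieta males, and 11.01 at 14 days, 12.05, 12.28 and 11.99 at 15 days and 11.85 at 16 days in Las Bocas males. The lowest mean was on the Punta Prieta array of 15 days, replicate 1, which stood apart, and the groups overlapped through the Las Bocas array of 14 days. All 24 were also lower in both sets of Punta Prieta virgin males, with medians of -0.47 on agria and -0.74 on organ pipe. Of the 18, 15 were also higher in agria and 18 in organ pipe virgin males, with medians of 0.38 and 0.47. These 42 were chosen by their values in the 10 arrays, so the means describe them and were not tested.

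**Figure D5:**
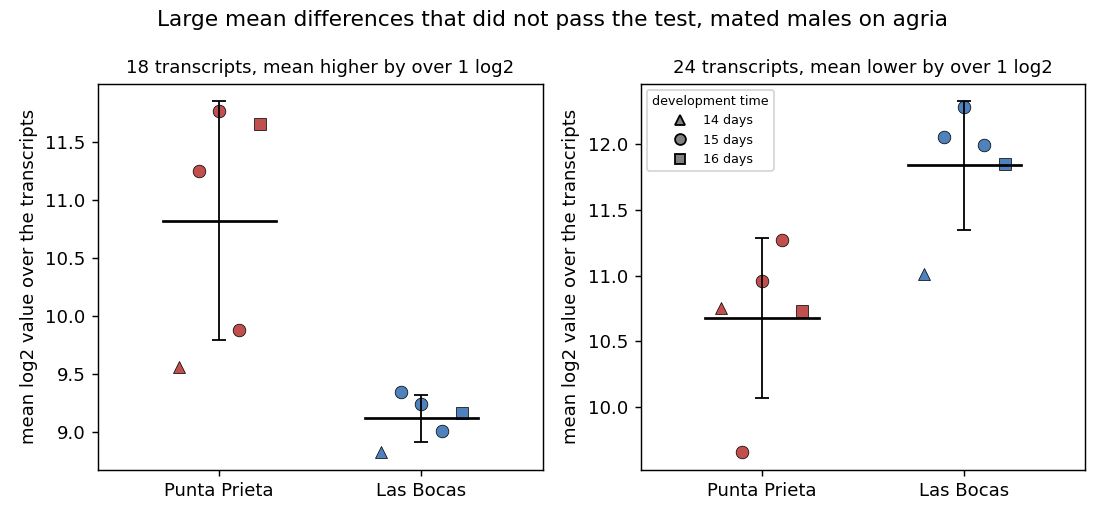
Mean log2 value (y axis) of the 18 transcripts higher (left) and the 24 lower (right) by over 1 in Punta Prieta that did not pass, on each array of mated males on agria. Lines are means and error bars SDs (n = 5 each); at left the Punta Prieta arrays of 15 days, replicates 1 and 2, and of 16 days lie at 11.25 to 11.76 and the other 2 at 9.56 and 9.88, against 8.83 to 9.35 in Las Bocas.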

How the data were processed

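Total RNA of whole flies was made into cDNA, labelled with Cy3 and hybridised to one-colour NimbleGen arrays. The log2 values were deposited by the authors as a table of 14528 transcripts on 137 arrays (5.83 to 15.89, 0 missing), and the submitters' processing notes name RMA, which sets arrays to a near-common distribution, so a difference in the amount of RNA per fly is not visible and differences of dim transcripts can be compressed. Not given in the sources used here were the version of RMA and the annotation release. Scanner signals and slide positions were not analysed here, so slide effects and background calls could not be tested. The number of arrays limits the precision, and 0 columns were identical.

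Groups came from the titles. The 10 arrays were fitted with limma 3.58.1 in R 4.3.3 (lmFit, eBayes) with population and development time in days, all transcripts together, at a Benjamini-Hochberg adjusted p below 0.05. Differences are Punta Prieta minus Las Bocas. The interactions were fitted on the agria males of 14 to 16 days and on the agria mated flies. The sex classes came from virgin arrays of 14 to 16 days, with a boundary of 2 on the log2 scale (4-fold), and little sex bias meant within 0.5 or not past the threshold. Alternatives were other day terms, spreads, weights, scalings and filters, a replicate block and leaving out arrays. The rule named the 2 transcripts with the largest positive and the 2 with the largest negative difference among those past the threshold without overlap, and likewise for each interaction. No gene list could be used because the IDs are unnamed. The arrays, classes and rule were chosen with earlier results of these data known.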

Additional observations from a re-analysis of the deposited data

Results flagged for a closer look

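The Punta Prieta array of 15 days, replicate 1, had a mean correlation of 0.9559 with the other 9 arrays, outside the range of the other 4 Punta Prieta arrays by more than a test for 1 deviating value among 5 allows. Without it 80 transcripts passed, against 104 with it. The Las Bocas array of 14 days had an SD of log2 values of 1.852, set apart in the same way from the other 4 Las Bocas arrays. Without it 164 transcripts passed. Such flags arise by chance in about 1 of 20 groups, and 2 arose in 28 groups examined.

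The population difference was larger in mated males than in mated females by 2.07 for FBtr0175386 and by 1.71 for FBtr0172763, each tested as an interaction in limma (adjusted p = 0.00718), with 5 of 5 Punta Prieta male arrays above all Las Bocas male arrays.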

How the results depend on the processing

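The 104 transcripts became 97 to 144 without the day term, with days as categories, with the spread from 137 arrays, with another variance model, with other scalings or without dim transcripts, and 87 with a difference over 0.5 required. They became 182 with the spread from all arrays that match their labelled sex, 678 with array weights, 2 with 15 day arrays only, 38 without the 2 arrays of lowest mean correlation (Punta Prieta and Las Bocas, 15 days, replicates 1 and 2; chosen after seeing the data), and 14 to 164 when each array was left out. Replicate numbers gave deviations correlated at -0.091, 0.127 and -0.091 within the 15 day pairs, so the numbers are not shown to pair arrays, and with the replicate block 1 transcript passed, which was none of those named: FBtr0175546 (2.31, adjusted p = 0.0704), FBtr0167831 (1.74, 0.168), FBtr0167365 (-2.58, 0.135) and FBtr0175016 (-2.09, 0.16) lost the call in limma. For the population difference, the spread from 137 arrays gave 131 transcripts, of which 64 were among the 104. The interaction with mating gave 0 transcripts in all alternatives run, the replicate block and each array left out among them. That with sex gave 2 with the replicate block, of which FBtr0175386 was 1 (adjusted p = 0.0389) while FBtr0172763 lost the call (1.70, adjusted p = 0.062), and 16 with 15 day arrays only, neither named transcript among them, 1158 with array weights, 1 without the 3 Las Bocas female arrays of low sex score, 0 without the 2 arrays of lowest correlation, and 2 to 5 when each array was left out. FBtr0175386 and FBtr0172763 kept their direction throughout. In organ pipe virgin males 642 transcripts passed, 1568 with array weights and 1509 without the 2 arrays that stood apart, and in mated females 27, 4509 and 3. With sex bias over 2-fold as the boundary, 19 strongly (16 higher, 3 lower) and 11 moderately male-biased (4 and 7) and 9 strongly female-biased transcripts (2 and 7) passed. These are counts in classes of changed size, and their shares are not given here. Without the array against its label, 3 transcripts higher in mated males passed, against 1. The cause of these changes was not tested. Centring arrays moved the median of all differences from 0.001 to 0.011. Each named transcript kept its direction in every alternative, but these fits reuse the arrays in which it was chosen.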

Other observations

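The 18 transcripts that were higher in Punta Prieta mated males by over 1 without passing were also high on a few arrays elsewhere in the series. Outside the 10 arrays, their mean log2 value was over 11 on 3 of 38 other Punta Prieta male arrays, 3 of 35 Punta Prieta female arrays, 0 of 27 other Las Bocas male arrays and 1 of 27 Las Bocas female arrays. The medians of these sets were 9.71, 10.07, 9.14 and 9.62. The highest value was 12.73, from organ pipe virgin females of Punta Prieta (16 days, replicate 1). The single Las Bocas array over 11 came from agria virgin females (15 days, replicate 5) and had 11.88. In Punta Prieta virgin males the value was 11.75 on the agria array and 12.08 on the organ pipe array of 14 days, replicate 1. The limit of 11 was chosen after seeing the values in the 10 arrays.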
